A study of Mus musculus with 7 samples.

Results

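A listed set of 44 genes of the skeletal muscle sarcomere and of muscle metabolism was followed through 7 subcutaneous flank tumours in mice. The genes were taken by symbol, and all 44 were found among the 47643 gene rows of the expression table. By fibre type, 14 of them encode fast-fibre proteins (Actn3, Myh1, Myh2, Myh4, Mylpf, Myl1, Tnnt3, Tnni2, Tnnc2, Myoz1, Mybpc2, Casq1, Atp2a1 and Pvalb). Another 5 were listed as slow-fibre genes (Tnnt1, Tnni1, Tnnc1, Myoz2 and Mybpc1). The other 25 were not assigned to a fibre type, among them the skeletal actin gene Acta1 and the neonatal myosin gene Myh8.

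The tumours grew from cells that the labels call MTOs, edited with guides against both Prkci and Prkcz, the genes of the atypical protein kinases C. Every tumour carried this edit, so no unedited tumour stands beside them, and the sources used here do not say whether the edited cells were 1 clone. A cell suspension with 30% Matrigel was placed under the skin of the right flank of C57BL/6 mice aged 7 weeks, and the labels give an age of 13 weeks. Treatment began on day 15 and was given 2 times a week for 3 weeks, with PEGPH20, a pegylated hyaluronidase that degrades hyaluronan, at 0.0375 mg/kg for 4 tumours (replicates 11, 12, 19 and 37), or with vehicle for 3 tumours (replicates 14, 16 and 33). The labels name the tissue as MTO xenograft tumour and mention no muscle. Values below are always listed in this order of replicates.

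Striated muscle contracts when myosin thick filaments pull on actin thin filaments inside the sarcomere, a repeat bounded by Z-discs and held in register by the giant proteins titin and nebulin. Calcium released from the sarcoplasmic reticulum binds troponin C and moves the troponin complex, which opens the thin filament to myosin. Fast glycolytic fibres and slow oxidative fibres use different genes for many of these parts, so the isoforms present show which kind of fibre an RNA sample holds. The mouse flank has body wall muscle, and its skin has a thin muscle layer of its own, the panniculus carnosus. The sources used here do not say whether either was taken with these tumours.

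The libraries held 4582238 to 6703775 reads with PEGPH20 and 4204388 to 4304108 with vehicle. Mitochondrial transcripts took 10.97% to 12.28% of reads in the 7 libraries. The epithelial markers Epcam, Cdh1, Krt8, Krt18 and Krt19 together reached 3939 to 4647 CPM (reads scaled to the library total) with PEGPH20 and 4146 to 5214 CPM with vehicle. Vehicle replicate 16 stood apart for the muscle genes, and vehicle replicate 14 for 6 genes of cornified epidermis. These summed to 9.04 to 13.8 CPM with PEGPH20, against 174 CPM in vehicle replicate 14 and 12.4 and 9.99 CPM in vehicle replicates 16 and 33. For genes tested in both fits and described singly, the difference without vehicle replicate 16 stands beside that with it.

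Promoter sequences of 4 of the genes are shown because 34 of the 44 genes shared their 2 highest libraries, Acta1 and Myh4 among them, while Myoz2 and Cox7a1 did not. Myoz2 was still highest in vehicle replicate 16, and had 2 reads in PEGPH20 replicate 37 and 1 in PEGPH20 replicate 11. Each sequence runs from 250 bases before to 50 bases after the RefSeq transcription start on GRCm38.p6, 5′ to 3′ on the gene's strand. The windows are chr8:123894726-123895025 (minus strand) for Acta1, chr11:67237562-67237861 (plus) for Myh4, chr3:123034938-123035237 (minus) for Myoz2 and chr7:30183921-30184220 (plus) for Cox7a1. Capitals mark CAGCTG (an E-box of the kind that myogenic bHLH factors can bind), the MEF2 element, the CArG box of serum response factor and TATAAA, the last on the printed strand alone.
Acta1: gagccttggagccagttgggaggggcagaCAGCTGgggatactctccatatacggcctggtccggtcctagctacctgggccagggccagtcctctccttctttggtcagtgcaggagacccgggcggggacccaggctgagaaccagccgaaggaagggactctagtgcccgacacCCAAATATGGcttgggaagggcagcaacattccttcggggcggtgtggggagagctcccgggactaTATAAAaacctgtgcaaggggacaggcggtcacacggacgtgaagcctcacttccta
Myh4: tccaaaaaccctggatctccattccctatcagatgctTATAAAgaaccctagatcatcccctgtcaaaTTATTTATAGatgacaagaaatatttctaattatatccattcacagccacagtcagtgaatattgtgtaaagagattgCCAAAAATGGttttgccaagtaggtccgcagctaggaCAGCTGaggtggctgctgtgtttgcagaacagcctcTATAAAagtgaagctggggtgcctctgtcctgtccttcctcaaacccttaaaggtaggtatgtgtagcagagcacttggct
Myoz2: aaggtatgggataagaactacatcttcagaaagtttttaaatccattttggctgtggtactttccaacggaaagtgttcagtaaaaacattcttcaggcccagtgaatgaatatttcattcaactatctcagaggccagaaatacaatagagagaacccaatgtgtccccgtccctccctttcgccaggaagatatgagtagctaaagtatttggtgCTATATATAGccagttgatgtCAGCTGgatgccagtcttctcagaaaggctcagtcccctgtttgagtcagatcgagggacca
Cox7a1: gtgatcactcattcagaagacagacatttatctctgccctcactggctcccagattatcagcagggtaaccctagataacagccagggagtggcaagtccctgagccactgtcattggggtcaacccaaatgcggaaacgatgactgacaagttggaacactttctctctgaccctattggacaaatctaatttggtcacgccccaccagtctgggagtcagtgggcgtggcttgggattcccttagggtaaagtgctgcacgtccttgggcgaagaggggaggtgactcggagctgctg
Acta1 holds the E-box, a CArG box and TATAAA, and Myh4 holds all 4 motifs. Myoz2 holds the E-box and a MEF2 element, and none of the 4 is in the Cox7a1 window. Genes not printed went otherwise. Tnnc2 had vehicle replicate 16 highest and PEGPH20 replicate 11 second, and its window holds none of the 4 motifs. Cox8b, highest in PEGPH20 replicate 11, holds the E-box and TATAAA. Whether the motifs go with the order of libraries was not tested.

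The RefSeq table matched 33 of the 44 genes, with 38 promoters. CAGCTG, its own reverse complement, was in 20 of the 38 (52.6%), against 16.3% of all 32851 mouse promoters of the same length. The looser E-box CANNTG, which includes CAGCTG, was in 81.6% of the 38, against 72.3% of all promoters. A MEF2 element on either strand was in 9 of them (23.7%), against 1.86% of all promoters. The CArG box, also searched on both strands, was in 10.5% of the 38 and in 1.63% of all promoters. TATAAA was in 15.8% of the 38 and in 8.32% of all. These are matches of letters and not measured binding.

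The summed level of the 44 genes differed more between tumours than between treatments. The genes took 5587, 418, 554 and 2175 reads with PEGPH20, against 620, 23136 and 1393 with vehicle. These were 0.122%, 0.00788%, 0.00826% and 0.0437% of all reads with PEGPH20, against 0.0145%, 0.550% and 0.0324% with vehicle. Vehicle replicate 16 was highest and PEGPH20 replicate 11 second, and the ranges of the groups overlapped. The exact 95% binomial interval (Clopper-Pearson, counting error only) was 0.119% to 0.125% in PEGPH20 replicate 11, 0.00715% to 0.00868% in PEGPH20 replicate 12 and 0.543% to 0.557% in vehicle replicate 16, so counting error is small beside these gaps. The highest library stood 69.8-fold above the lowest over all 7, and the spread within PEGPH20 alone was 15.5-fold.

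Group means were 0.0454% ± 0.0537 with PEGPH20 (SD, n = 4) and 0.199% ± 0.304 with vehicle (SD, n = 3), so each SD exceeded its mean. Without its highest library each mean fell, to 0.0199% without PEGPH20 replicate 11 and to 0.0235% without vehicle replicate 16. Medians were 0.0260% with PEGPH20 and 0.0324% with vehicle. Vehicle replicate 16 alone held 68.3% of the 33883 muscle reads of the study. In bulk RNA, fewer muscle cells and less muscle RNA per cell cannot be told apart.

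**Figure D1:**
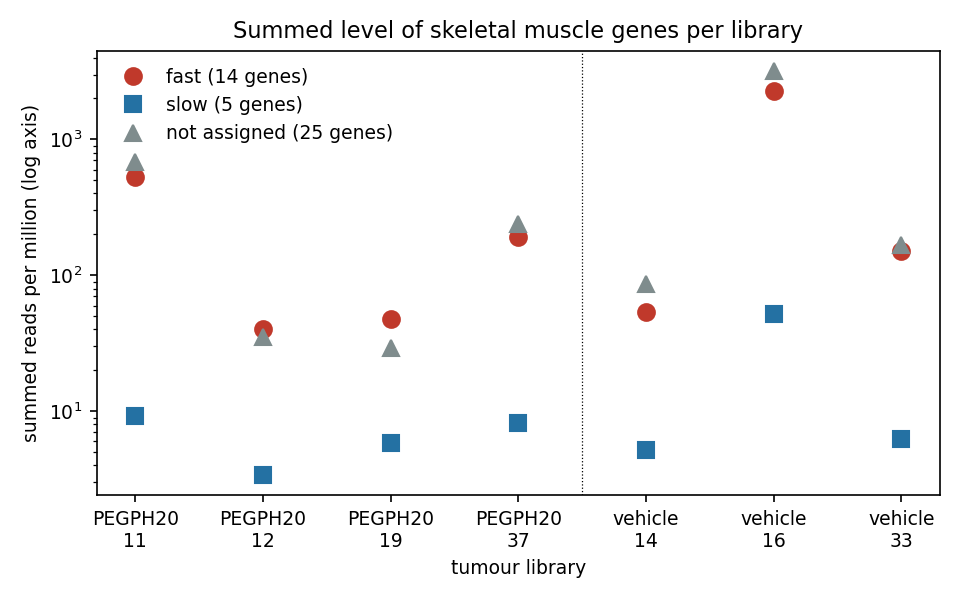
Summed CPM of the 14 fast, 5 slow and 25 unassigned genes in each library (log axis). Each point is 1 tumour, with the 4 PEGPH20 libraries left and the 3 vehicle libraries right of the dotted line. The fast sum reached 530 CPM in PEGPH20 replicate 11 and 2265 CPM in vehicle replicate 16, and the slow sum stayed between 3.39 and 9.17 CPM in every library but vehicle replicate 16, where it was 51.9 CPM.

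Gene by gene, no muscle gene passed the test. All 44 had a mean value of at least 1 and were tested in limma on log2(value + 1) among 17132 genes, with Benjamini-Hochberg adjustment over all of them. Of the 44, 0 had an adjusted p under 0.05, and over all genes 0 of 17132 did (0%). Their smallest adjusted p was 0.437 and their largest 0.976. At an unadjusted p under 0.05, limma had 0 of the 44, against 12.2% of all genes. The edgeR test called 0 of the 25 that entered it, against 0 of 13079 genes, with 5 of the 25 at an unadjusted p under 0.05, against 13.0% of all genes in that fit. DESeq2 gave an adjusted p to 13 of the 44 and called 0 of them, against 0.262% of the 24439 genes it fitted, with or without an adjusted p. At an unadjusted p under 0.05 it had 3 of the 44, against 6.09% of all genes.

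The differences nevertheless lay mostly on 1 side. PEGPH20 had the lower mean log2 value for 42 of the 44 genes, against 46% of all tested genes. The median log2 difference, PEGPH20 minus vehicle, was -1.52 over the 44 and 0.03 over all genes. It was below -1 for 30 of the 44, against 2.69% of all genes. For none of the 44 did the libraries of the groups separate without overlap, against 11.2% of all genes (6.72% higher and 4.45% lower with PEGPH20).

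These counts rest mostly on vehicle replicate 16. That library had the highest value of the 7 for 42 of the 44 genes, against 19.5% of all tested genes. For 34 genes, PEGPH20 replicate 11 came second behind it. Without vehicle replicate 16, 39 of the 44 genes could be tested, of which 21 were lower and 18 higher with PEGPH20. The share higher was 46.2%, against 56.2% of all genes in that fit. The median difference was -0.05, against 0.06 over all genes. The other 5 of the 44 (Actn2, Myh8, Mylk2, Myoz2 and Sln) had a mean under 1 in the remaining 6 libraries. They had passed the filter through vehicle replicate 16 alone. In that fit limma called 0 of the 39, against 3 of 17044 genes (0.0176%), and 1 of the 39 had an unadjusted p under 0.05, against 20.3% of all genes. It was Eno3, with a difference of 0.79 ± 0.32 (SE) and an adjusted p of 0.211, named after its value was seen.

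**Figure D2:**
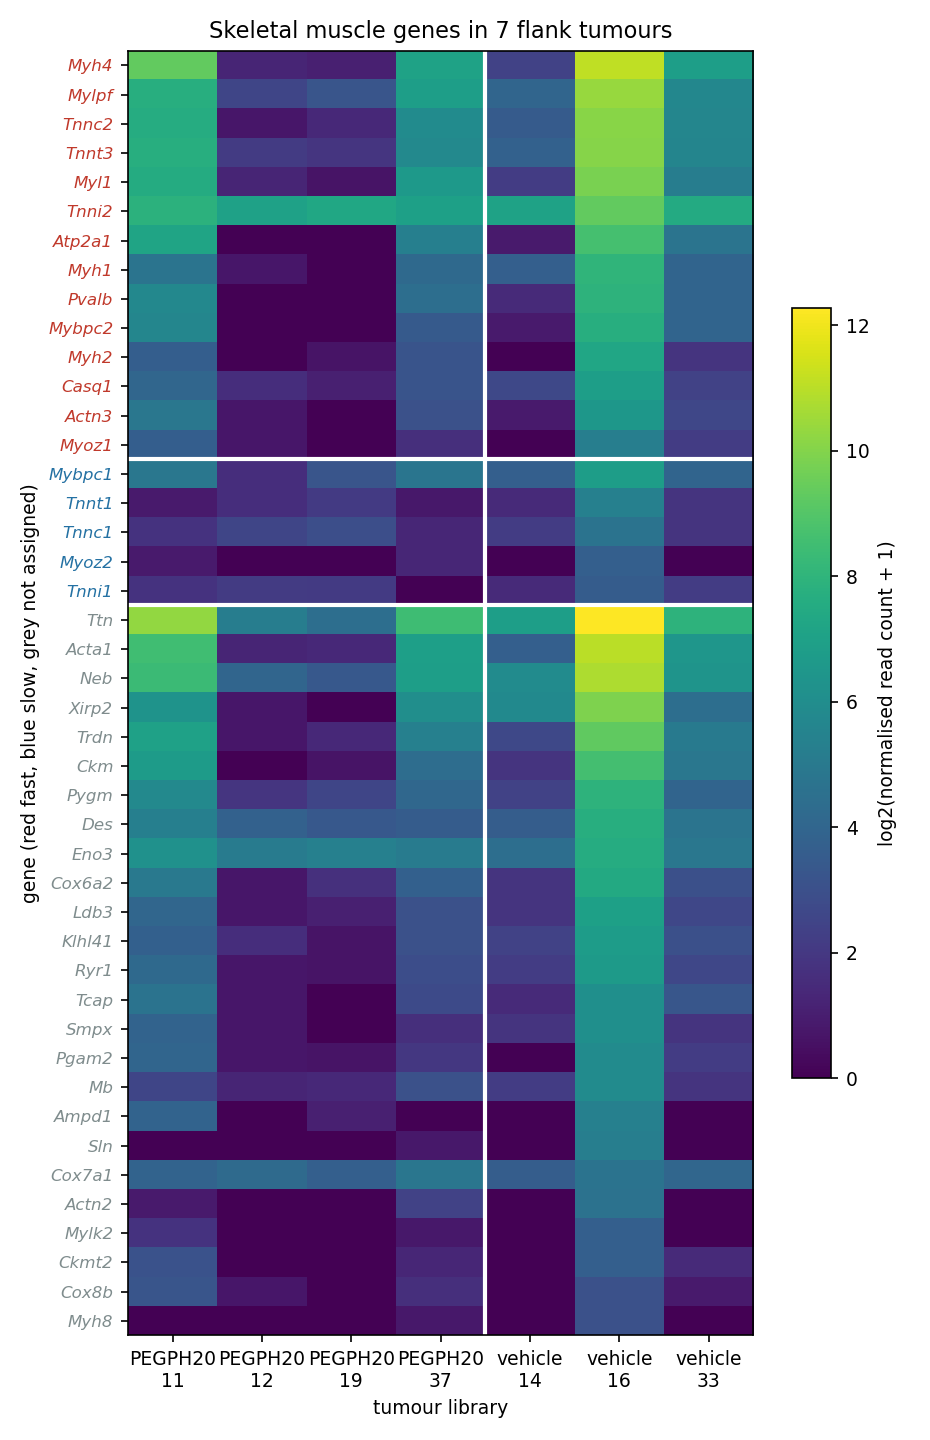
Normalised read counts of the 44 genes on a log2(value + 1) colour scale, 1 column per tumour, with PEGPH20 left of vehicle and fast, slow and unassigned genes from top to bottom. Vehicle replicate 16 has the highest value of 42 genes. Tnni2, Eno3, Ttn, Cox7a1, Neb and Des keep visible values in PEGPH20 replicates 12 and 19, where most other rows are near 0.

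The fast genes as a group had a median log2 difference of -1.68, with all 14 lower with PEGPH20 (-2.81 to -0.66). The slow genes had a median of -0.89, with all 5 lower (-1.54 to -0.69). Of the 25 unassigned genes, 23 were lower, with a median of -1.33 and a range of -3.45 to 0.09. Without vehicle replicate 16 the medians were 0.03 over 14 fast genes, -0.26 over 4 slow genes and -0.15 over 21 unassigned genes.

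The heavy chain genes of the set lie side by side on the plus strand of GRCm38 chromosome 11, from Myh2 (67171027 to 67197517) through Myh1 (67200052 to 67224575) and Myh4 (67238029 to 67260446) to Myh8 (67277124 to 67308634). Myh4, the heavy chain of the fastest (IIb) fibres, had 641, 1.38, 1.10 and 133 normalised read counts with PEGPH20, against 4.36, 2214 and 115 with vehicle. It was abundant in 4 tumours, 2 of each group, and nearly absent in the other 3. The log2 difference was -2.12 ± 2.35 (SE; limma's adjusted p = 0.737; 0.04 without vehicle replicate 16), smaller than its own error. Myh1, the heavy chain of IIx fibres, had 25.7, 0.69, 0 and 17.5 with PEGPH20, against 12.2, 257 and 14.7 with vehicle. Its difference of -2.81 ± 1.35 (-1.42 without vehicle replicate 16) was the largest of the fast genes and had the smallest adjusted p of the 44 (0.437), and the groups still overlapped.

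Myh2, the heavy chain of IIa fibres, had 11.6, 0, 0.55 and 8.03 normalised read counts with PEGPH20, against 0, 151 and 2.60 with vehicle. It stood 13.0-fold higher in vehicle replicate 16 than in PEGPH20 replicate 11, where Myh4 stood 3.46-fold higher. Against PEGPH20 replicate 37 the folds were closer, 18.8 for Myh2 and 16.7 for Myh4. Against vehicle replicate 33, with 3 reads of Myh2, they were 57.9 and 19.2. The log2 difference of Myh2 was -1.17 ± 1.56 (limma's adjusted p = 0.788; 0.94 without vehicle replicate 16). The neonatal heavy chain gene Myh8 had 0, 0, 0 and 0.73 with PEGPH20, against 0, 7.35 and 0 with vehicle, which is 1 read in PEGPH20 replicate 37 and 8 in vehicle replicate 16.

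The fast light chain genes followed the heavy chains. Mylpf, the fast regulatory light chain, had 205, 4.82, 8.29 and 117 normalised read counts with PEGPH20, against 14.8, 1354 and 50.3 with vehicle (log2 difference -1.61 ± 1.61, limma's adjusted p = 0.702; 0.25 without vehicle replicate 16). Myl1, the fast essential light chain, ranged from 0.55 to 190 with PEGPH20 and from 3.49 to 888 with vehicle. Myosin binding protein C, which sits on the thick filament, has a fast gene, Mybpc2, and a slow gene, Mybpc1. Mybpc2 had 48.9, 0, 0 and 10.2 with PEGPH20, against 0.87, 203 and 14.7 with vehicle (-1.90 ± 1.70, adjusted p = 0.662, -0.16 without vehicle replicate 16). Mybpc1 had 28.2, 2.07, 8.29 and 26.3 with PEGPH20, against 12.2, 113 and 14.7 with vehicle (-1.23 ± 0.92, adjusted p = 0.598, -0.23 without vehicle replicate 16). Mybpc1 had 15 reads in PEGPH20 replicate 19 and only 3 in PEGPH20 replicate 12, and Mybpc2 had 0 in both. Mylk2, the skeletal light chain kinase gene, did not pass 2.49 in any library but vehicle replicate 16, where it had 11.9.

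Myosin heavy chain makeup was compared within libraries, as a share of the reads of Myh4, Myh1, Myh2, Myh7, Myh8 and Myh3. The kit reads 3′ ends, and whether counts here grow with transcript length was not tested. The share needs no scaling between libraries. The 6 genes had 818, 3, 3 and 221 reads with PEGPH20, against 19, 2895 and 153 with vehicle, so the makeup is uninformative in PEGPH20 replicates 12 and 19. Myh4 took 94.5% in PEGPH20 replicate 11 (exact 95% interval 92.7% to 96.0%) and 82.4% in replicate 37 (76.7% to 87.1%), against 83.2% in vehicle replicate 16 (81.8% to 84.6%) and 86.9% in replicate 33 (80.5% to 91.8%). Fast heavy chains thus dominated each muscle-rich library of both groups. Myh2 took 1.71% in PEGPH20 replicate 11 (0.939% to 2.85%), against 5.66% in vehicle replicate 16 (4.85% to 6.57%), and these intervals do not meet. It took 4.98% in PEGPH20 replicate 37 (2.51% to 8.73%) and 1.96% in vehicle replicate 33 (0.406% to 5.62%). Both of these intervals overlap those of PEGPH20 replicate 11 and vehicle replicate 16, so the groups did not separate.

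In vehicle replicate 14 the order was turned round. Myh1 took 14 of its 19 heavy chain reads, 73.7% (48.8% to 90.9%), and Myh4 took 26.3%. The slow heavy chain gene Myh7 was at 0 in 5 libraries, with 1 read in PEGPH20 replicate 37 and a share of 0.518% (0.290% to 0.853%) in vehicle replicate 16. The embryonic heavy chain gene Myh3 took 0.905% in PEGPH20 replicate 37, on 2 reads, and 0.656% (0.396% to 1.02%) in vehicle replicate 16, and was at 0 elsewhere. In PEGPH20 replicate 11 both were at 0 of 818 reads, for which the exact interval reaches 0.450%.

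**Figure D3:**
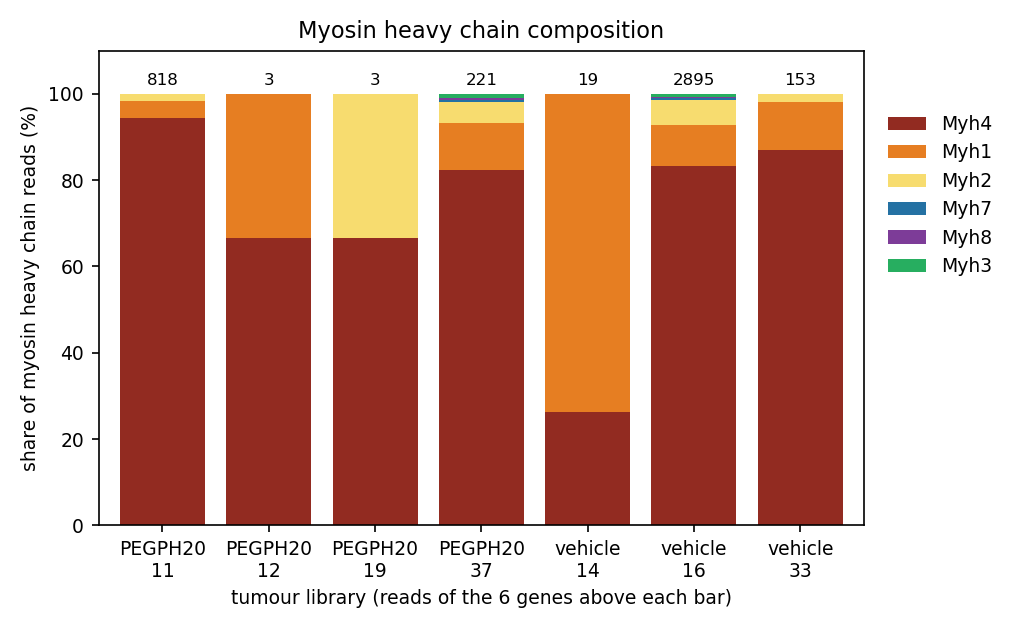
Share of myosin heavy chain reads (percent) taken by 6 genes in each library, with the number of reads above each bar. PEGPH20 libraries stand left of vehicle libraries. Myh4 takes 82.4% to 94.5% in the 4 libraries with over 100 reads, and bars of 3 or 19 reads carry wide intervals.

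In the thin filament, the skeletal alpha-actin gene Acta1 had 359, 1.38, 1.66 and 119 normalised read counts with PEGPH20, against 12.2, 2062 and 86.8 with vehicle. As for Myh4, vehicle replicate 16 was highest, PEGPH20 replicate 11 second and PEGPH20 replicates 12 and 19 nearly empty, with overlap between the groups. Its log2 difference was -2.55 ± 2.06 (limma's adjusted p = 0.623; -0.58 without vehicle replicate 16). Nebulin, the ruler of the thin filament (Neb), had 329, 15.2, 9.39 and 116 with PEGPH20, against 59.3, 1736 and 79.8 with vehicle (-2.01 ± 1.39, adjusted p = 0.567, -0.47 without vehicle replicate 16). Klhl41, which stabilises nebulin, ranged from 0.55 to 12.4 with PEGPH20 and from 4.36 to 108 with vehicle.

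Troponin T, which anchors the troponin complex to tropomyosin, comes from Tnnt3 in fast and Tnnt1 in slow fibres. Tnnt3 had 209, 3.44, 2.76 and 53.3 normalised read counts with PEGPH20, against 13.1, 1042 and 47.7 with vehicle (log2 difference -2.10 ± 1.66, limma's adjusted p = 0.617; -0.33 without vehicle replicate 16). Tnnt1 had 0.83, 2.07, 3.31 and 0.73 with PEGPH20, against 1.74, 39.5 and 2.60 with vehicle (-1.54 ± 0.86, adjusted p = 0.497, -0.31 without vehicle replicate 16). PEGPH20 replicate 11 was second highest for Tnnt3 and had 1 read of Tnnt1. Of the reads of both genes, Tnnt1 took 0.395% there (exact 95% interval 0.01001% to 2.18%), against 3.65% in vehicle replicate 16 (2.66% to 4.89%). Of the 5 fast and slow pairs of genes this was the only one whose intervals in these libraries did not meet.

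Troponin I is the inhibitory subunit. Tnni2, its fast gene, had 238, 131, 160 and 123 normalised read counts with PEGPH20, against 132, 649 and 181 with vehicle. No library was below 123, and the 7 values spanned 5.26-fold, although PEGPH20 replicates 12 and 19 had under 4 counts of Tnnt3 each. In those libraries Tnni2 supplied 45.5% and 52.2% of all reads of the 44 genes, against 5.14% in PEGPH20 replicate 11 and 3.05% in vehicle replicate 16. Tnni2 (chromosome 7, 142441808 to 142444410) and Tnnt3 (142498836 to 142516009) are close neighbours on 1 strand. The log2 difference of Tnni2 was -0.66 ± 0.47 (limma's adjusted p = 0.579; 0.03 without vehicle replicate 16). Tnni1, its slow gene, had 2.49, 3.44, 3.31 and 0 with PEGPH20, against 1.74, 11.03 and 3.47 with vehicle (-0.89 ± 0.67, adjusted p = 0.601, -0.29 without vehicle replicate 16).

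Troponin C, the calcium sensor, comes from Tnnc2 in fast fibres and from Tnnc1 in slow fibres and heart. Tnnc2 had 192, 0.69, 1.66 and 59.1 normalised read counts with PEGPH20, against 10.5, 1098 and 49.5 with vehicle (log2 difference -2.51 ± 1.87, limma's adjusted p = 0.596; -0.67 without vehicle replicate 16). Tnnc1 had 2.49, 4.82, 6.63 and 1.46 with PEGPH20, against 3.49, 24.8 and 2.60 with vehicle (-0.76 ± 0.70, adjusted p = 0.675, 0.14 without vehicle replicate 16). Outside vehicle replicate 16, the highest values of Tnnc1 were in PEGPH20 replicates 12 and 19, the libraries lowest for Tnnc2.

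In the other pairs, the slow gene's share had overlapping intervals in PEGPH20 replicate 11 and vehicle replicate 16. For Tnni1 beside Tnni2 it was 1.03% (0.214% to 2.99%) in PEGPH20 replicate 11, against 1.67% (0.867% to 2.90%) in vehicle replicate 16. For Tnnc1 beside Tnnc2 it was 1.28% (0.264% to 3.69%) in PEGPH20 replicate 11, against 2.21% (1.46% to 3.20%) in vehicle replicate 16. Mybpc1 beside Mybpc2 took 36.6% (26.8% to 47.2%) in PEGPH20 replicate 11, against 35.8% (30.7% to 41.1%) in vehicle replicate 16. Myoz2 beside Myoz1 took 6.67% (0.169% to 31.9%) in PEGPH20 replicate 11, against 24.1% (13.5% to 37.6%) in vehicle replicate 16.

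The fast share of all fast and slow reads summarises these genes. It was 98.3%, 92.2%, 89.1% and 95.9% with PEGPH20, against 91.2%, 97.8% and 96.0% with vehicle. Means were 93.9% ± 4.06 with PEGPH20 (SD, n = 4) and 95.01% ± 3.38 with vehicle (SD, n = 3), a gap smaller than either SD. Without Tnni2, which was left out after its values were seen, the share was 98.1%, 56.1%, 42.6% and 95.04% with PEGPH20, against 78.0%, 97.6% and 94.3% with vehicle. The high fast share of PEGPH20 replicates 12 and 19 thus rests on Tnni2, and the 4 muscle-rich libraries stayed above 94% with or without it. The share sets 14 fast genes beside 5 slow genes. Over the 5 fast and slow pairs alone it was 95.3%, 91.6%, 88.4% and 89.2% with PEGPH20, against 89.1%, 93.8% and 92.7% with vehicle. Among the slow reads, Mybpc1 supplied 34, 3, 15 and 36 of 42, 18, 39 and 41 with PEGPH20. With vehicle it supplied 14, 123 and 17 of 22, 218 and 27. The slow sum thus rests mostly on Mybpc1 in the 4 muscle-rich libraries, and whether those reads came from slow fibres was not tested. No test was made of the fast share, since the genes in it were chosen with results known.

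Among the calcium handling genes, Atp2a1, the fast-fibre calcium pump SERCA1, had 144, 0, 0 and 37.9 normalised read counts with PEGPH20, against 0.87, 406 and 25.2 with vehicle. It was at 0 in PEGPH20 replicates 12 and 19 and at 1 read in vehicle replicate 14. The log2 difference was -1.64 ± 2.10 (limma's adjusted p = 0.775; 0.31 without vehicle replicate 16). Pvalb, the cytosolic calcium buffer parvalbumin of fast fibres, had 51.4, 0, 0 and 20.4 with PEGPH20, against 1.74, 244 and 14.7 with vehicle (-1.92 ± 1.73, adjusted p = 0.665, -0.18 without vehicle replicate 16), in the same order of libraries as Atp2a1.

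Casq1, calsequestrin, which stores calcium in the reticulum, had 15.7, 2.07, 1.10 and 8.03 normalised read counts with PEGPH20, against 5.23, 118 and 4.34 with vehicle (log2 difference -1.50 ± 1.10, limma's adjusted p = 0.588; -0.05 without vehicle replicate 16). Ryr1, the calcium release channel, had 17.4, 0.69, 0.55 and 6.57 with PEGPH20, against 3.49, 103 and 5.21 with vehicle (-1.71 ± 1.18, adjusted p = 0.570, -0.27 without vehicle replicate 16). Triadin (Trdn), which ties the channel to calsequestrin, ranged from 0.69 to 128 with PEGPH20 and from 5.23 to 618 with vehicle. All 3 were highest in vehicle replicate 16 and second in PEGPH20 replicate 11. Sarcolipin (Sln), a small inhibitor of the calcium pump, departed from them, with 1 read in PEGPH20 replicate 37, 41 reads in vehicle replicate 16 and 0 in the other 5, PEGPH20 replicate 11 included. Against 3 reads there, the floor for a count of 0, it was at least 15.2-fold higher in vehicle replicate 16.

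The structural genes titin and desmin were detected in every tumour. Ttn had 1236, 35.8, 20.99 and 350 normalised read counts with PEGPH20, against 117, 4962 and 245 with vehicle (log2 difference -1.94 ± 1.55, limma's adjusted p = 0.620; -0.31 without vehicle replicate 16). Desmin (Des), the intermediate filament of skeletal, heart and smooth muscle, had 38.1, 13.1, 9.39 and 10.9 with PEGPH20, against 11.3, 209 and 25.2 with vehicle (-1.33 ± 0.85, adjusted p = 0.543, -0.15 without vehicle replicate 16). Des spread less than Acta1, with 4 libraries between 9.39 and 13.1. The summed level of 6 smooth muscle markers was 31.2 to 57.9 CPM with PEGPH20 and 31.2 to 80.2 CPM with vehicle, and the part of smooth muscle in the Des values was not tested.

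The Z-disc genes Actn3, Actn2, Myoz1, Myoz2, Tcap, Ldb3 and Smpx were all highest in vehicle replicate 16, at 11.9 (Myoz2) to 127 (Ldb3) normalised read counts. Alpha-actinin 3 (Actn3) cross-links actin in fast fibres and had at most 28.2 with PEGPH20, in replicate 11, while alpha-actinin 2 (Actn2) had at most 4.38 there, in replicate 37. The calsarcin gene of slow fibres, Myoz2, had 1 read in PEGPH20 replicate 11 and 2 in replicate 37, against 13 in vehicle replicate 16, and 0 in the other 4 libraries.

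Xirp2, an actin-binding protein of the junctions between muscle fibres and tendon, had the most negative log2 difference of the 44, -3.45 ± 1.77 (limma's adjusted p = 0.460; -1.86 without vehicle replicate 16). Its values were 77.9, 0.69, 0 and 67.1 normalised read counts with PEGPH20, against 56.7, 963 and 20.8 with vehicle. In vehicle replicate 14 it was far above its level in PEGPH20 replicates 12 and 19, although Acta1 was low in all 3. There it had 65 reads beside 14 of Acta1, or 82.3% of their sum (exact 95% interval 72.1% to 90.0%). Its share was 17.8% and 36.1% in PEGPH20 replicates 11 and 37, against 31.8% and 19.4% in vehicle replicates 16 and 33. Vehicle replicate 14 was also the library with cornified epidermis markers, and the part of that tissue in its muscle makeup was not tested.

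The metabolic genes split into those that followed the sarcomere and those that did not. Ckm, the muscle creatine kinase that buffers ATP, had 107, 0, 0.55 and 19.7 normalised read counts with PEGPH20, against 2.62, 391 and 27.8 with vehicle (log2 difference -2.16 ± 1.83, limma's adjusted p = 0.637; -0.41 without vehicle replicate 16). Pygm, muscle glycogen phosphorylase, had 53.9, 2.76, 4.97 and 16.1 with PEGPH20, against 4.36, 245 and 14.7 with vehicle (-1.19 ± 1.26, adjusted p = 0.720, 0.39 without vehicle replicate 16). Myoglobin (Mb), the oxygen store of oxidative fibres, had 4.97, 1.38, 1.66 and 7.30 with PEGPH20, against 3.49, 58.8 and 2.60 with vehicle (-1.23 ± 0.92, adjusted p = 0.598, 0.07 without vehicle replicate 16). Mb stood 11.8-fold higher in vehicle replicate 16 than in PEGPH20 replicate 11, where Ckm stood 3.65-fold higher. Against PEGPH20 replicate 37 the order was reversed, at 8.06-fold for Mb and 19.8-fold for Ckm. Against vehicle replicate 33 they stood 22.6-fold and 14.1-fold higher. Mb had only 6, 10 and 3 reads in PEGPH20 replicates 11 and 37 and vehicle replicate 33.

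Of the cytochrome c oxidase subunits, Cox6a2, the muscle form, ranged from 0.69 to 30.7 normalised read counts with PEGPH20 and from 2.62 to 176 with vehicle. Cox8b had 8.29, 0.69, 0 and 2.19 with PEGPH20, against 0, 7.35 and 0.87 with vehicle, at most 10 reads in any library, and was the 1 gene highest in PEGPH20 replicate 11. Cox7a1 had 14.1, 17.9, 12.2 and 26.995 with PEGPH20, against 11.3, 24.8 and 15.6 with vehicle, and was highest in PEGPH20 replicate 37. These were the 2 genes with a positive difference, 0.09 ± 0.89 for Cox8b and 0.05 ± 0.34 for Cox7a1 (limma's adjusted p = 0.976 and 0.968), and 0.96 and 0.33 without vehicle replicate 16. Both subunits are also made in brown fat, whose defining gene Ucp1 was at 0 in all 7 libraries, while Cidea and Ppargc1a brought that 3-gene list to 71.5 to 134 CPM with PEGPH20 and 30.7 to 77.5 CPM with vehicle. The part of other tissues in the Cox7a1 level was not tested.

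Eno3, the muscle enolase of glycolysis, had 72.1, 33.1, 40.3 and 33.6 normalised read counts with PEGPH20, against 20.9, 190 and 27.8 with vehicle. It stayed above 20 in every library, and Tnni2 and Ttn were the other two of the 44 that did. Its log2 difference was -0.19 ± 0.65 (limma's adjusted p = 0.932), and 0.79 without vehicle replicate 16. Pgam2, the muscle phosphoglycerate mutase, Ampd1, the muscle AMP deaminase, and Ckmt2, the mitochondrial creatine kinase of muscle, were at 0 in 1, 4 and 3 libraries. Ckmt2 had 7.46 in PEGPH20 replicate 11, its highest value with PEGPH20, against 11.9 in vehicle replicate 16.

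**Figure D4:**
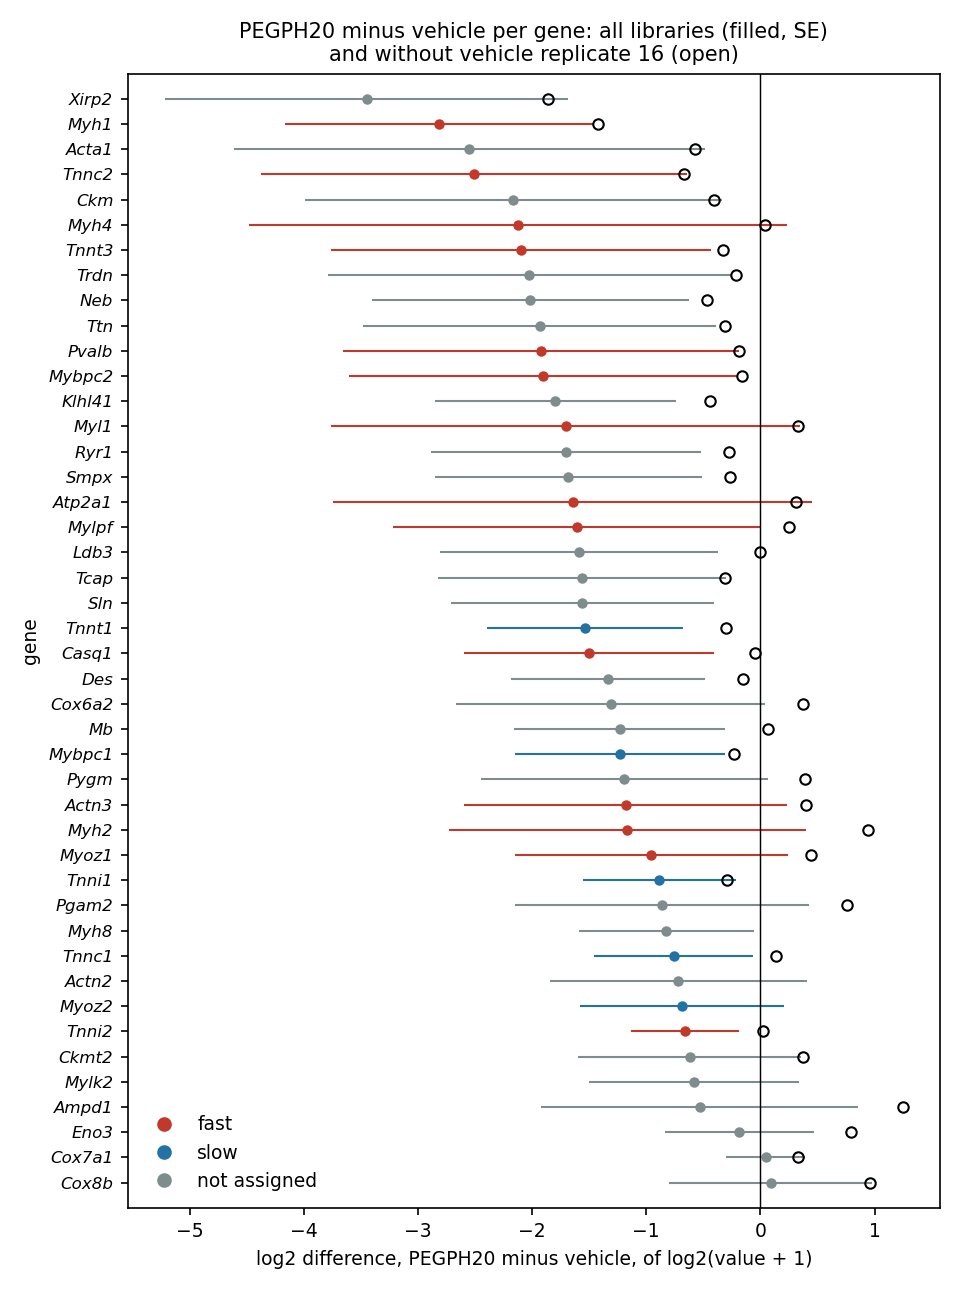
Log2 difference of each of the 44 genes, PEGPH20 minus vehicle, from limma on log2(value + 1), with all 7 libraries (filled, bars are SE) and without vehicle replicate 16 (open circles, 39 genes). Filled points run from -3.45 (Xirp2) to 0.09 (Cox8b). Open circles lie on both sides of 0, with 21 lower and 18 higher, while 56.2% of all genes in that fit were higher.

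Vehicle replicate 16 and PEGPH20 replicate 11 were the libraries richest in muscle reads. Their summed CPM of the 44 genes was 1219 in PEGPH20 replicate 11 and 5503 in vehicle replicate 16, which is 4.51 times as much. Over the 36 genes with more than 3 reads in both, the ratio of normalised read counts, vehicle replicate 16 over PEGPH20 replicate 11, had a median of 4.72 and ran from 0.887 (Cox8b) to 13.0 (Myh2). The 14 fast genes were all among them and also had a median of 4.72, and Mybpc1, the one slow gene among them, had a ratio of 4.01. The other 4 slow genes had 1 to 3 reads in PEGPH20 replicate 11. Their ratios carried wide exact 95% counting intervals, from 1.20 to 24.5 around 4.44 for Tnni1, from 3.07 to 51.4 around 9.98 for Tnnc1, from 2.17 to 613 around 14.4 for Myoz2 and from 8.11 to 1927 around 47.7 for Tnnt1. The Tnnt1 interval alone of these lay above the median ratio. With 1 tumour on each side, this has no replicate check.

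**Figure D5:**
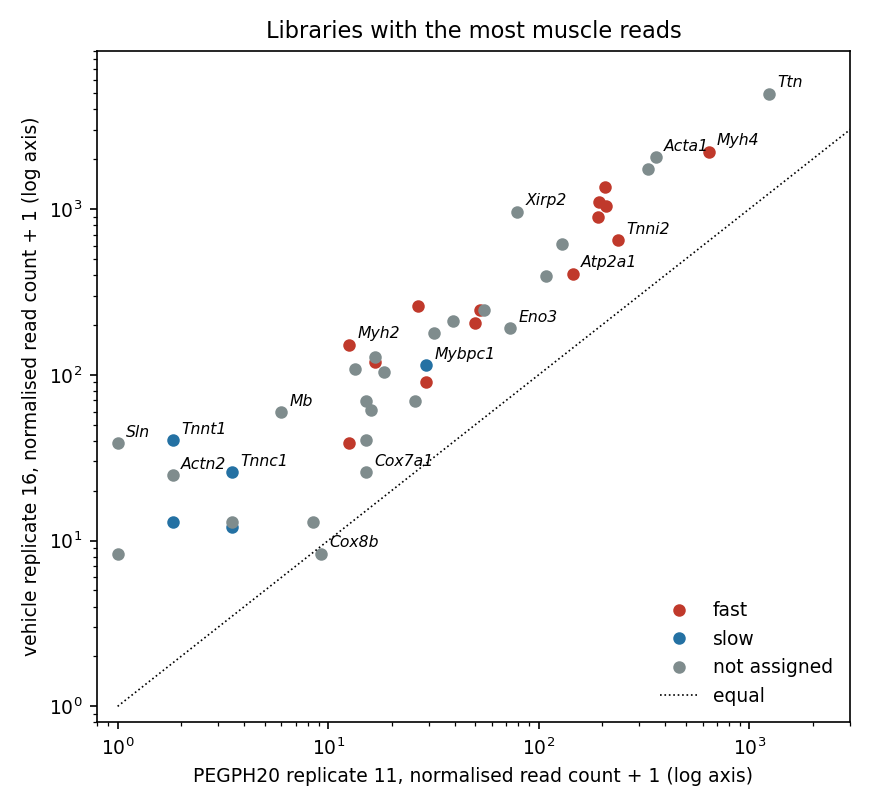
Normalised read count + 1 of the 44 genes in PEGPH20 replicate 11 (horizontal) and vehicle replicate 16 (vertical), both on log axes, with colours for fibre type and a dotted line of equality. All genes but Cox8b lie above the line, with a median ratio of 4.72 over the 36 genes with more than 3 reads in both. The slow genes Tnnt1, Tnnc1 and Myoz2 rest on 1 to 3 reads in PEGPH20 replicate 11.

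A further 63 listed muscle genes were read outside the 44. Of these, 54 could be tested, 48 were lower and 6 higher with PEGPH20, against 46% lower over all tested genes, with a median log2 difference of -0.91. Limma called 0 of the 54, with a smallest adjusted p of 0.302, and 10 had an unadjusted p under 0.05, against 12.2% of all genes. Vehicle replicate 16 was highest for 45 of the 54, against 19.5% of all genes. Without it 45 could be tested, of which 29 were lower and 16 higher, while 56.2% of all genes in that fit were higher. Their median was -0.14, against 0.06 over all genes. The slow genes Myh7, Myl2 and Myl3 had 13.8, 23.9 and 23.0 normalised read counts in vehicle replicate 16 and at most 0.87 in any other library. Atp2a2, the calcium pump of slow fibres and of most other cells, had 571 to 646 with PEGPH20 and 502 to 531 with vehicle.

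Muscle precursor genes were scarce. Pax7, the marker of satellite cells, was at 0 in all 7 libraries, and with PEGPH20 the 4-gene list of Pax7, Myf5, Myod1 and Myog was at 0 in all 4 libraries. It had 0.234, 2.85 and 0 CPM with vehicle. The heart genes Myh6 and Nppa were at 0 throughout, while Tnnt2, which other tissues also express, brought the 5-gene heart list to 14.1 to 64.4 CPM with PEGPH20 and 39.7 to 126 CPM with vehicle. Tendon markers (4 genes) were at 3.82 to 11.1 CPM with PEGPH20 and 3.52 to 12.5 CPM with vehicle. Adipocyte markers (8 genes, Lep at 0) were at 15.1 to 44.1 CPM with PEGPH20 and 21.8 to 39.5 CPM with vehicle. Single genes of that list differed more than its sum. Cfd had 53.9, 30.3, 18.2 and 2.92 normalised read counts with PEGPH20, against 1.74, 2.76 and 0.87 with vehicle. Adipoq had 12.4, 6.89, 3.31 and 0.73 with PEGPH20, against 1.74, 2.76 and 0 with vehicle. Fabp4 (48.2 to 141 in the 7 libraries) and Plin4 were instead highest in vehicle replicate 16. Fibroblast markers (6 genes) were at 1970 to 5292 CPM with PEGPH20 and 4111 to 10881 CPM with vehicle, lowest in PEGPH20 replicates 11 and 37, the PEGPH20 libraries with the most muscle reads. The parts of these tissues in the muscle values were not tested.

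Depth and counting limit the low values. At 3 reads or fewer stood 8, 33, 30 and 12 of the 44 genes with PEGPH20, against 22, 0 and 13 with vehicle, and 9 genes had more than 3 reads in every library. In the annotation, 16 of the 44 have exons that overlap a gene on the opposite strand (Myh1, Myh2, Tnnc2, Ckm, Ckmt2, Mb, Ttn, Neb, Des, Mybpc1, Mybpc2, Casq1, Ryr1, Atp2a1, Cox6a2 and Xirp2). The sources used here do not say whether counting used strand, which makes those values uncertain. In the last 500 nt, Myh1, Myh2, Myh4 and Acta1 share 9.44%, 10.96%, 2.57% and 0.704% of their 75-nt stretches with related genes, Myl1 16.1% with a pseudogene and Klhl41 15.7% with unrelated genes.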

How the data were processed

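Total RNA (200 ng) went into the QuantSeq 3′ FWD kit (optional molecular identifiers), with reads from 1 end for 75 nt, per the labels' protocols. Per the submitters' processing notes the genome was GRCm38. The sources used here do not give alignment, counting or any collapsing of identifiers. Each deposited signal value belongs to 1 gene and 1 library. By their spacing, the deposited signals are reads divided by a factor common to the library, since 100% were whole multiples of the smallest value in their column (tolerance 0.01). Whole reads were recovered that way. Deposited values are called normalised read counts. Symbols were found for 47224 of 47643 gene rows.

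Genes with a mean of at least 1 were tested with limma 3.58.1 (intensity trend) on log2(value + 1), two-sided, with treatment as the only term and a Benjamini-Hochberg threshold of 0.05. A difference is on that scale and understates the change of low genes. The labels number the tumours but do not say that each came from a separate mouse, so p-values measure only the spread between these samples, which may be technical. Libraries of a group differed beyond sampling noise (chi-square per degree of freedom 6.59 to 16.4), so none was a copy. Shares carry exact Clopper-Pearson 95% intervals from SciPy 1.17.1, which cover counting error only. The limma, edgeR 4.0.16 and DESeq2 1.42.0 steps were tested on simulated data. Alternatives were those tests on recovered reads, other scalings, filters and a pseudocount of 0.1, the omission of each library, and other gene sets for the shares. Values in every library are given for a list of 24 of the genes and for the 2 largest and 2 smallest differences. Eno3, Neb and Sln were added after their values were seen, and the rest are given by range or count. The genes, fibre types, marker lists and tests were chosen with earlier results of these data known. Gene positions and overlaps come from GENCODE M21. Promoters come from RefSeq (GRCm38.p6).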

Additional observations from a re-analysis of the deposited data

Results flagged for a closer look

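In 48 results, the 44 genes and 4 summed levels or shares, the 4 PEGPH20 libraries were searched for a value far from the rest, by the gap to its nearest neighbour over the whole range (Dixon's ratio, at its 95% critical value). Chance passes that value in about 1 in 20 groups, and 3 passed. For Myh8 and Sln the ratio was 1, because PEGPH20 replicate 37 had 1 read of each and the others had 0. For Tnni1 it was 0.837, with PEGPH20 replicate 37 at 0 and the others at 2.49 to 3.44 normalised read counts. All 3 rest on a few reads. The vehicle group of 3 was not searched, so vehicle replicate 16 was not judged by it.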

How the results depend on the processing

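No paired analysis was possible because the groups share no replicate number. Of the 44 genes, 0 were called under each alternative run. Fewer were higher with PEGPH20 than the 2 of the full data among genes with a mean of at least 10 (1 of 32) and in edgeR (1 of 25). Leaving out single libraries gave 0 (without vehicle replicate 14) to 18 higher (without vehicle replicate 16), and median differences of -2.42 to -0.045, without the same libraries. The median was -1.81 with a pseudocount of 0.1, -1.54 to -1.53 under other scalings, -2.36 in edgeR and -2.32 in DESeq2. DESeq2 called 64 of all genes, and leaving out libraries 0 to 3, with 3 without vehicle replicate 16. DESeq2 gave 31 of the 44 no adjusted p, and the smallest of the other 13 was 0.396; in edgeR it was 0.350. The mean fast share was 42.3% with PEGPH20 and 56.7% with vehicle once Myh7, Myl2, Myl3, Atp2a2 and Casq2 joined the slow genes, but 93.7% and 94.5% without Atp2a2. Without Tnni2 it was 73.0% with PEGPH20 and 89.9% with vehicle; both omissions were chosen after seeing the data. Leave-one-out differences, followed for the 24 listed genes and for Xirp2 and Cox7a1, changed sign for Cox8b (-0.57 to 0.96), Cox7a1 (-0.20 to 0.33), Myh2 (-2.68 to 0.94), Myh4 (-4.31 to 0.036), Mylpf (-2.96 to 0.25), Tnni2 (-1.12 to 0.026), Tnnc1 (-1.28 to 0.14), Mb (-1.96 to 0.065), Atp2a1 (-3.57 to 0.31) and Pygm (-2.37 to 0.39). The highest value was without vehicle replicate 16 for all 10. Without that library a further 8 genes turned positive: Ampd1 (1.25), Eno3 (0.79), Pgam2 (0.76), Myoz1 (0.44), Actn3 (0.40), Cox6a2 (0.37), Ckmt2 (0.37) and Myl1 (0.33). Causes were not tested.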

Other observations

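Beyond the muscle lists, vehicle replicate 16 was searched, after its values were seen, for genes with at least 20 reads there and at least 5 times the value of every other library. There were 43, of which 17 belong to the 44 muscle genes, 10 to the list of other muscle genes and 16 to neither. The 16 include Asb5, Apobec2, Fabp3, Rbfox1, Mustn1, Pdlim3, Synpo2l, Art1, Tmem182, Igfn1 and Scn4b. Fabp3, a fatty acid carrier of heart and oxidative muscle, and Apobec2, a muscle member of its deaminase family, are among those with a known place in striated muscle. The search used 1 library and has no replicate check.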
